A study of Capra hircus with 9 samples.

Results

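The immune miRNAs examined here are the mature products of 5 hairpin genes, miR-146a, miR-146b, miR-150, miR-155 and miR-223, in the mammary gland of Laoshan dairy goats. They were selected by name, as chi-miR-150 and every listed miRNA whose name starts with chi-miR-146a, chi-miR-146b, chi-miR-155 or chi-miR-223, with both arms of a hairpin where both were listed. This gave 8 of the 1359 miRNAs in the count table, and 7 of the 8 passed the limit on low counts. Small RNA was sequenced from the udder of 9 healthy goats of 1 farm, of parity 3 and with a mean age of 4 years. Of these, 3 were in late lactation (LL) at day 240 after kidding, 3 were dry (DP) at day 300 after kidding, and 3 were in late gestation (LG) at day 140 from mating, and each gave 1 library. Each stage therefore holds different goats, and no treatment or engineered allele was part of the design. Whole tissue was used, so each value is a sum over all cells of the sample.

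The 5 hairpins are the classic miRNAs of white blood cells. miR-223 belongs to the myeloid lineage and is most abundant in neutrophils, where it restrains granulocyte activation. miR-150 is a miRNA of mature B and T lymphocytes, in which it limits the transcription factor MYB. miR-155 is switched on in activated lymphocytes, macrophages and dendritic cells and promotes inflammatory responses. miR-146a and miR-146b are induced through NF-kB and act as a brake on Toll-like receptor signaling through the adaptors IRAK1 and TRAF6. They share their seed, the stretch at the 5′ end that selects targets, and are also made by cells other than leukocytes. In the udder, leukocytes enter the tissue and the secretion, above all when milking stops and the gland regresses.

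All 5 hairpin genes were found in the RefSeq gene table of ARS1.2, the goat assembly to which the authors aligned the reads, and none of them overlapped another gene of that table. MIR223 lies on chromosome X from 21156880 to 21156986, 2.505 kb from VSIG4, a complement receptor gene of tissue macrophages. MIR150 lies on chromosome 18 from 56963114 to 56963210, 7.48 kb from FCGRT, which encodes the neonatal Fc receptor for IgG. MIR155 lies on chromosome 1 from 9262294 to 9262392, 9.15 kb from MRPL39. MIR146A, on chromosome 7 from 38521139 to 38521237, has PTTG1 as its nearest listed neighbor at 57.1 kb. MIR146B, on chromosome 26 from 28622805 to 28622913, lies 3.16 kb from CUEDC2.

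The libraries held 13672653 to 34378995 counts, and the level of 3 counts, the limit that a count of 0 allows, was 0.0680 to 0.235 CPM depending on the library. CPM are counts brought to a common library size, here with edgeR's TMM scaling, and 1 read covers a whole mature miRNA, so levels were not divided by length. chi-miR-148a-3p, the leading miRNA of the secreting gland, took between 8.81% and 59.4% of a library, and the 8 immune miRNAs together between 0.162% and 2.65%. The scaling of the libraries shifts all fold changes of a comparison together. The median log2 fold change of the 696 tested miRNAs was 0.12 in DP vs. LL, 0.18 in DP vs. LG and 0.17 in LL vs. LG with TMM, and 0.49, −0.02 and −0.42 with library size only. The miRNAs of epithelium (miR-200 family) summed to 34893 to 42110 CPM in LL, 13064 to 20811 CPM in DP and 34218 to 37559 CPM in LG, so markers of the labelled tissue were abundant in every library. Those of skeletal muscle summed to 722 to 933 CPM in LL, 971 to 3448 CPM in DP, highest in DP replicate 3, and 419.5 to 531 CPM in LG.

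miRNAs were called differentially expressed (DE-miRNAs) where the adjusted p-value was under 0.05 and the log2 fold change was above 1 in size, in edgeR's quasi-likelihood test over all 696 tested miRNAs. In DP vs. LG, 5 of the 7 tested immune miRNAs were called, every one higher in DP, against 31.5% of all tested miRNAs (21.6% higher and 9.91% lower in DP). They were both arms of miR-223, chi-miR-150, chi-miR-155-5p and chi-miR-146a. LL vs. LG also had 5 of 7 called, all higher in LL, against 12.8% of all tested miRNAs (8.91% higher and 3.88% lower in LL). These were both arms of miR-223, both arms of miR-146b and chi-miR-155-5p. In DP vs. LL, 3 of 7 were called, against 26.7% of all tested miRNAs (15.1% higher and 11.6% lower in DP), with chi-miR-150 higher and both arms of miR-146b lower in DP. The mean was lowest in LG for both arms of miR-223, chi-miR-155-5p and chi-miR-146a, with TMM and with library size only. The median log2 fold change of the 7 was −0.999 in DP vs. LL, 2.02 in DP vs. LG, and 2.74 when LL was set against LG. The libraries of the stages did not overlap for 3 of the 7 in DP vs. LL, 5 in DP vs. LG and 6 in LL vs. LG, against 41.2%, 44.7% and 48.4% of all tested miRNAs. With library size only these counts were 5, 4 and 5, against 44.3%, 44.3% and 47% of all tested miRNAs, and chi-miR-146a, chi-miR-150 and chi-miR-146b-5p were the ones that moved. These comparisons share libraries, so their values are not independent of each other. Nor are the 7 miRNAs, since they hold both arms of miR-223 and both arms of miR-146b.

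**Figure D1:**
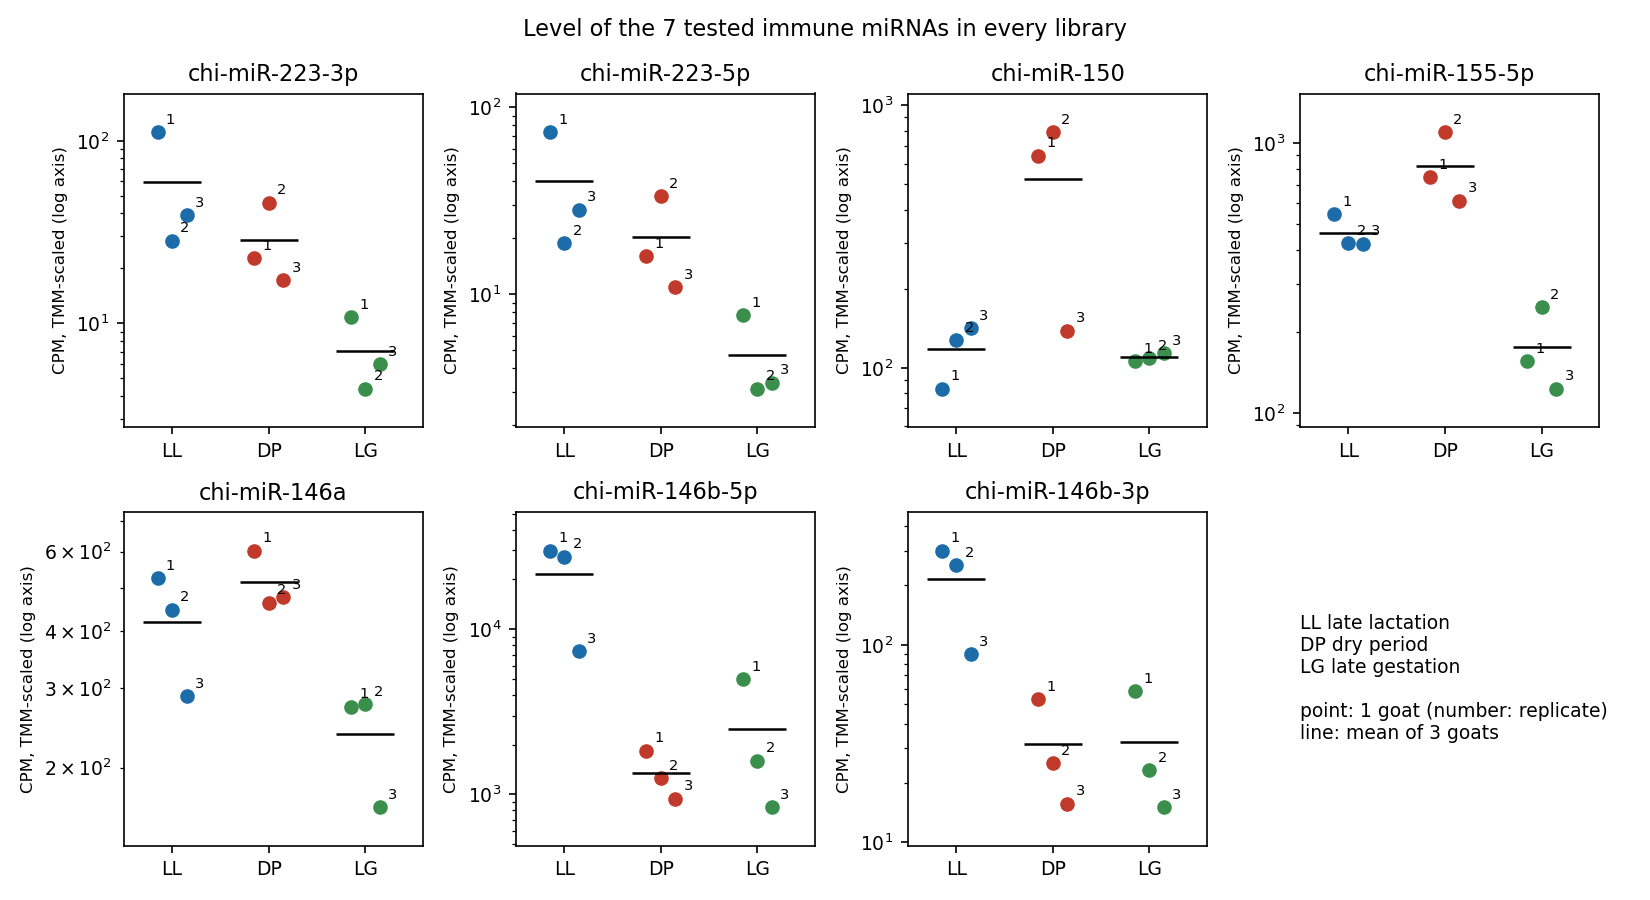
Level of the 7 tested immune miRNAs in CPM scaled by TMM (log axis, a separate range in each panel) in late lactation (LL), the dry period (DP) and late gestation (LG). Each point is 1 goat with its replicate number and the line is the mean of 3 goats. Both arms of miR-223 are lowest in LG, chi-miR-150 is high in 2 of the 3 DP libraries, and both arms of miR-146b are highest in LL.

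miR-223, the neutrophil miRNA, was lowest in late gestation. chi-miR-223-3p had 112, 28.3 and 39.1 CPM in LL replicates 1, 2 and 3, 22.8, 45.9 and 17.3 CPM in DP, and 10.8, 4.38 and 5.98 CPM in LG. Every LL and every DP library lay above every LG library, while LL and DP overlapped. The mean was 59.7 ± 45.4 CPM (SD, n = 3) in LL, 28.6 ± 15.2 CPM in DP and 7.06 ± 3.34 CPM in LG. The spread within LL came mostly from LL replicate 1, at 1424 counts against 429 and 724 in the others. LL exceeded LG by 3.08 on the log2 scale (SE 0.61, adjusted p = 0.00823), and DP exceeded LG by 2.02 (SE 0.58, adjusted p = 0.0192). Its log2 fold change in DP vs. LL was −1.06, with a 95% interval from −2.31 to 0.19 (adjusted p = 0.176). Without LL replicate 1 these values were 2.02 in LL vs. LG (adjusted p = 0.04998) and −0.16 in DP vs. LL.

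chi-miR-223-5p, the other arm of the same hairpin, repeated this pattern at a lower level. Its levels were 73.5, 18.8 and 28.2 CPM in LL, 16.0, 33.3 and 10.9 CPM in DP and 7.68, 3.12 and 3.35 CPM in LG. As with the 3p arm, the LG libraries lay below all others. On the log2 scale it was higher by 3.09 in LL vs. LG (SE 0.63, adjusted p = 0.00893) and by 2.09 in DP vs. LG (SE 0.61, adjusted p = 0.0200), with −0.999 between DP and LL (95% interval −2.29 to 0.29, adjusted p = 0.220). In LL vs. LG the 3p arm was called in 17 of the 18 other fits and the 5p arm in 15. Without LG replicate 3 the log2 fold changes were 2.81 (adjusted p = 0.0557) for chi-miR-223-3p and 2.73 (adjusted p = 0.0596) for chi-miR-223-5p. The 5p arm was also not called without LG replicate 2 (2.71, adjusted p = 0.0522) or LL replicate 1 (2.08, adjusted p = 0.0580). Its value in DP vs. LL was −0.16 without LL replicate 1 and −1.60 without DP replicate 2. In DP vs. LG, both arms lost their call without DP replicate 2, LG replicate 2 or LG replicate 3, with log2 fold changes of 1.35, 1.60 and 1.72 for chi-miR-223-3p.

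The red blood cell miRNA chi-miR-451-5p, which comes with blood in the tissue, is given beside miR-223 because both are blood-borne. It had 543, 523 and 359.7 CPM in LL, 121, 1279 and 569 CPM in DP and 85.0, 153 and 164 CPM in LG. DP replicate 2 was thus the highest DP library for chi-miR-451-5p and for both arms of miR-223, and LL replicate 1 was the highest LL library for all of them, but LG replicate 1 was the lowest LG library for chi-miR-451-5p and the highest for both arms of miR-223. The low arms of miR-144, also of red blood cells, were highest in DP replicate 3 instead, with 0.942, 4.32 and 5.19 CPM of chi-miR-144-5p and 0.188, 0.230 and 2.31 CPM of chi-miR-144-3p in DP. chi-miR-451-5p had a log2 fold change of 2.29 in DP vs. LG (SE 0.64, adjusted p = 0.0176), and LL differed from LG by 1.83 (SE 0.63, adjusted p = 0.0757). In DP vs. LG, DESeq2 called 1 of the 3 tested red blood cell miRNAs and limma-voom 0. The part of residual blood in the miR-223 values was not tested. In bulk tissue, fewer cells of a type and less of their RNA per cell cannot be told apart, which holds for all values here.

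chi-miR-150, the lymphocyte miRNA, was highest in the dry period, but in 2 of its 3 goats. It had 643, 792 and 139 CPM in DP replicates 1, 2 and 3 and 106, 109 and 114 CPM in LG, while LL had 83.3, 127 and 142 CPM. DP replicate 3 lay within the LL range and above all LG libraries, and with library size only it lay above all LL libraries (142 against 62.0 to 117 CPM) and below LG replicate 3 (146.2 CPM). LG was tight, at 109.6 ± 4.03 CPM (SD, n = 3), and LL had 117 ± 30.5 CPM, while the DP mean of 524 ± 342 CPM was spread widely. The DP level was higher by 2.16 on the log2 scale than that in LL (SE 0.51, adjusted p = 0.00998) and by 2.26 than that in LG (SE 0.51, adjusted p = 0.00674). Both stayed calls in each of the 18 other fits, between 1.68 and 2.59 in DP vs. LL and between 1.58 (without DP replicate 2) and 2.49 in DP vs. LG. DP replicate 3 was also the library with the highest skeletal muscle signal (chi-miR-1 at 3224 CPM, against 876 and 949 CPM in the other DP libraries), and the part of muscle in its values was not tested. LL and LG did not differ beyond their spread for chi-miR-150, with a log2 fold change of 0.10 (95% interval −0.98 to 1.18, adjusted p = 0.916) whose sign turned with the scaling, to −0.47 with library size only, where all LL libraries lay below the lowest LG library at 121 CPM.

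chi-miR-155-5p, the miRNA of activated leukocytes, was ordered DP, LL, LG without overlap between the stages. It had 744, 1097 and 611 CPM in DP, 545, 425 and 424 CPM in LL, but 156, 247 and 123 CPM in LG. The lowest DP library lay above the highest LL library, and the lowest LL library above the highest LG library. DP exceeded LG by 2.22 on the log2 scale (SE 0.32, adjusted p = 0.000628), which was called in all of the 18 other fits, from 1.79 to 2.40. LL was higher than LG by 1.41 (SE 0.31, adjusted p = 0.0128), a call lost in 6 of the 18, among them all fits without 1 LL library, those without LG replicate 1 or 3, and library size only (0.83, adjusted p = 0.0766). DP vs. LL was not called, at 0.81 with a 95% interval from 0.13 to 1.499 (adjusted p = 0.0701). With library size only it was called, at 1.17 (adjusted p = 0.0128).

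chi-miR-155-3p, the passenger arm of this hairpin, was hardly measured. It had 1, 1 and 1 counts in LL, 0, 6 and 3 in DP and 0, 0 and 0 in LG, and did not pass the limit on low counts. Over all 9 libraries, 12 of the 87220 counts of the hairpin were from the 3p arm, a share of 0.0138% (exact 95% binomial interval 0.00711 to 0.0240%). In LG it was 0 of 16213 counts, where the limit of 3 counts is a share of 0.0185% and the upper end of the exact 95% interval is 0.0228%. Limits and intervals cover counting error only. With no filter on low counts, edgeR's adjusted p-value for this arm was 0.611 in DP vs. LL, 0.0620 in DP vs. LG, and 0.239 for LL against LG.

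chi-miR-146a had the smallest of the called changes. Its levels were 525, 447 and 288 CPM in LL, 604, 463 and 476 CPM in DP and 272, 276 and 163 CPM in LG. All LL and DP libraries lay above all LG libraries, and LL and DP overlapped. With library size only, LL overlapped with LG instead, since LL replicate 3 had 217 CPM and LG 209.9 to 329 CPM, and all DP libraries lay above LL. The mean was 420 ± 121 CPM (SD, n = 3) in LL, 514 ± 77.7 CPM in DP and 237 ± 64.1 CPM in LG. The log2 fold change in DP vs. LG, 1.12 (SE 0.29, adjusted p = 0.0135), was only just past the limit on the fold change. This call was lost in 16 of the 18 other fits, where the log2 fold change was as low as 0.72, and was kept with limma-voom and with the replicate block. LL vs. LG was 0.82 (95% interval 0.18 to 1.47, adjusted p = 0.0804) and DP vs. LL 0.29 (95% interval −0.35 to 0.93, adjusted p = 0.478). The direction, higher in DP and in LL than in LG, was the same in all 18.

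chi-miR-146b-5p was the most abundant immune miRNA in each stage and the one with the widest range. It had 29924, 27465 and 7350.0 CPM in LL, 1842, 1258 and 941 CPM in DP and 5007, 1604 and 838 CPM in LG. In LL replicate 1 it ranked 6 among all listed miRNAs and took 2.23% of the counts, and in DP replicate 3 it ranked 58 and took 0.0963%. Every LL library was above every DP and LG library, and DP and LG overlapped. LL replicate 3 and LG replicate 1 were close, and their order rests on the scaling, since they held 0.553% and 0.574% of their library's counts. The mean was 21579.5 ± 12384 CPM (SD, n = 3) in LL, 1347 ± 457 CPM in DP and 2483 ± 2219 CPM in LG. DP differed from LL by −4.00 on the log2 scale (SE 0.71, adjusted p = 0.00243), a 16.0-fold difference that was called in all 18 other fits, from −4.49 to −3.63. LL was higher than LG by 3.12 (SE 0.69, adjusted p = 0.0120), and this call was lost without LL replicate 1, LL replicate 2, LG replicate 2 or LG replicate 3, at adjusted p-values of 0.0513 to 0.0698 and log2 fold changes of 2.53 to 2.83. Without LG replicate 1 it was 3.98. In DP vs. LG the log2 fold change was −0.88 (95% interval −2.29 to 0.52, adjusted p = 0.330), and it was −0.05 without LG replicate 1 and −1.503 without LG replicate 3.

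chi-miR-146b-3p, the less abundant arm, followed the 5p arm. Its libraries had 300.3, 254 and 89.5 CPM in LL, 53.1, 25.2 and 15.7 CPM in DP and 58.3, 23.1 and 15.1 CPM in LG. LL again lay above both other stages without overlap, and DP and LG covered nearly the same range. The mean of 32.2 ± 23.0 CPM (SD, n = 3) in LG was close to that of 31.3 ± 19.4 CPM in DP, and the log2 fold change between them was −0.04, with a 95% interval from −1.37 to 1.29, and −0.85 without DP replicate 1 or 0.49 without LG replicate 1. LL exceeded LG by 2.74 on the log2 scale (SE 0.64, adjusted p = 0.0171), which like that of the 5p arm was not called without LL replicate 1 or 2 or LG replicate 2 or 3, and was 3.33 without LG replicate 1. The difference of DP from LL was −2.78 (SE 0.64, adjusted p = 0.00909), called in all 18 other fits, and was −3.52 without DP replicate 1.

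**Figure D2:**
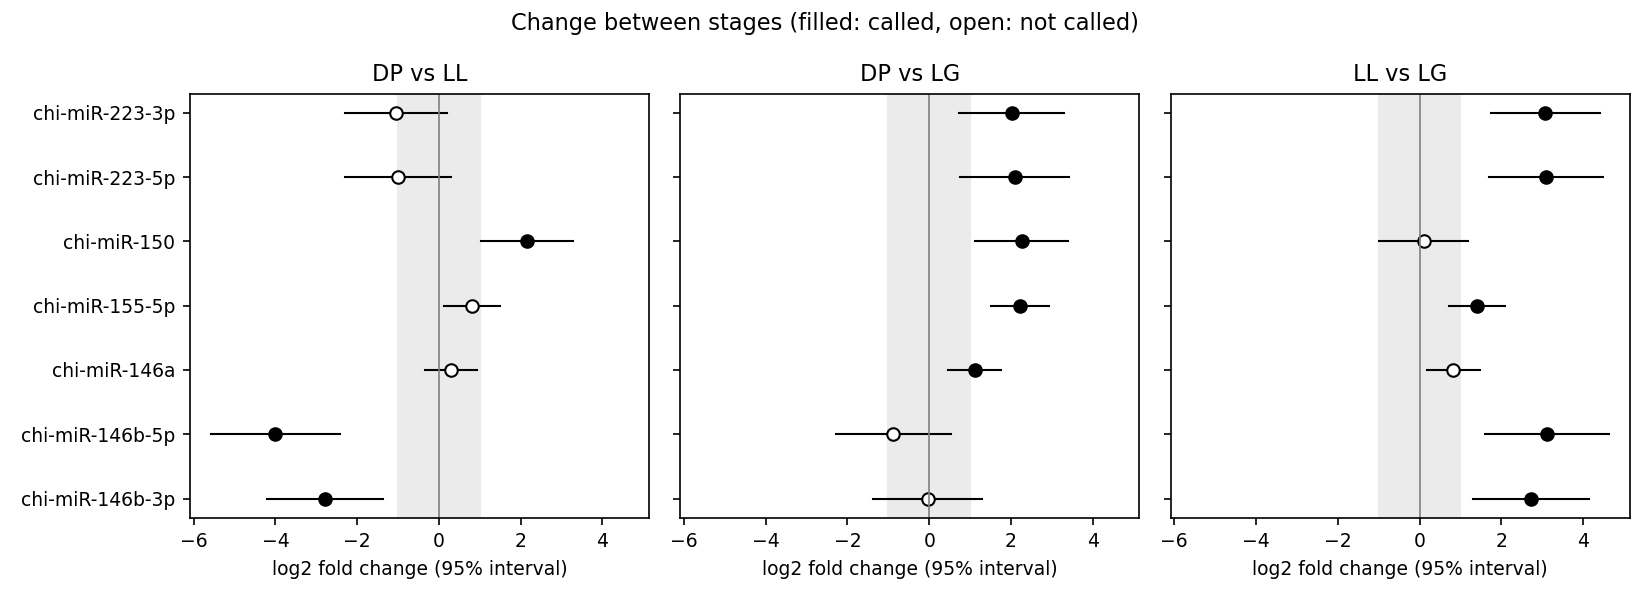
log2 fold change of the 7 tested immune miRNAs in DP vs. LL, DP vs. LG and LL vs. LG (x axis, with lines for the 95% interval of edgeR's test). Filled points are DE-miRNAs, open points are not, and the grey band marks log2 fold changes from −1 to 1. In DP vs. LL chi-miR-150 is to the right of the band and both arms of miR-146b to the left, while all called changes against LG are to the right.

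Counts of 1 miRNA divided by those of another within a library do not depend on how libraries are scaled, so 6 such ratios were compared across the stages with an exact permutation test of the F statistic over all 280 ways to part the 9 libraries into the 3 stages. The smallest p it can give is 0.00357, and p-values were adjusted over the 6 ratios. For the neutrophil against the lymphocyte miRNA, chi-miR-223-3p to chi-miR-150, the ratio was 1.34, 0.223 and 0.275 in LL, 0.0355, 0.0580 and 0.125 in DP, and 0.102, 0.0404 and 0.0526 in LG. All LL libraries were above all others, and only in LL replicate 1 were there more counts of chi-miR-223-3p than of chi-miR-150. The geometric mean was 0.435 in LL, 0.0635 in DP and 0.0601 in LG (exact permutation test, p = 0.0321, adjusted p = 0.0643). chi-miR-223-3p to chi-miR-155-5p gave geometric means of 0.108 in LL, 0.0331 in DP and 0.0392 in LG (exact permutation test, p = 0.0857, adjusted p = 0.129). Neither ratio passed the adjustment.

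The balance between the 2 miR-146 genes differed across the stages. chi-miR-146b-5p had 57.0, 61.4 and 25.5 times the counts of chi-miR-146a in LL, 18.4, 5.80 and 5.12 times in LG and 3.05, 2.72 and 1.98 times in DP. No library of a stage fell within the range of another stage. The difference across stages had the smallest p of the exact permutation test (p = 0.00357, adjusted p = 0.0214). With any 1 library left out, the unadjusted p was at or under 0.0214. These p-values were not adjusted over the ratios, so whether the adjusted p stays under 0.05 was not tested.

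The arms of 1 hairpin come from 1 precursor. For miR-223, counts of the 3p arm were 1.38 to 1.78 times those of the 5p arm in all 9 libraries, with no difference across stages beyond the spread (exact permutation test, p = 0.907, adjusted p = 0.907), although the 3p level itself ran from 4.38 to 112 CPM. For miR-146b, the 5p to 3p ratio was 99.6, 108 and 82.1 in LL, 85.8, 69.3 and 55.5 in LG and 34.7, 49.8 and 59.9 in DP. LL and DP did not overlap, and LG overlapped with both. The geometric mean was 96.0 in LL, 69.1 in LG and 46.9 in DP (exact permutation test, p = 0.0143, adjusted p = 0.0429). With 1 library left out, the unadjusted p was 0.0179 to 0.0607, with 0.0536, 0.0607 and 0.0571 without LL replicate 1, LL replicate 2 and DP replicate 1. These were not adjusted over the 6 ratios, so whether the adjusted p stays under 0.05 was not tested. The ratio for miR-155 was set by 0 to 6 counts of the 3p arm in each library (exact permutation test, p = 0.325, adjusted p = 0.39).

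**Figure D3:**
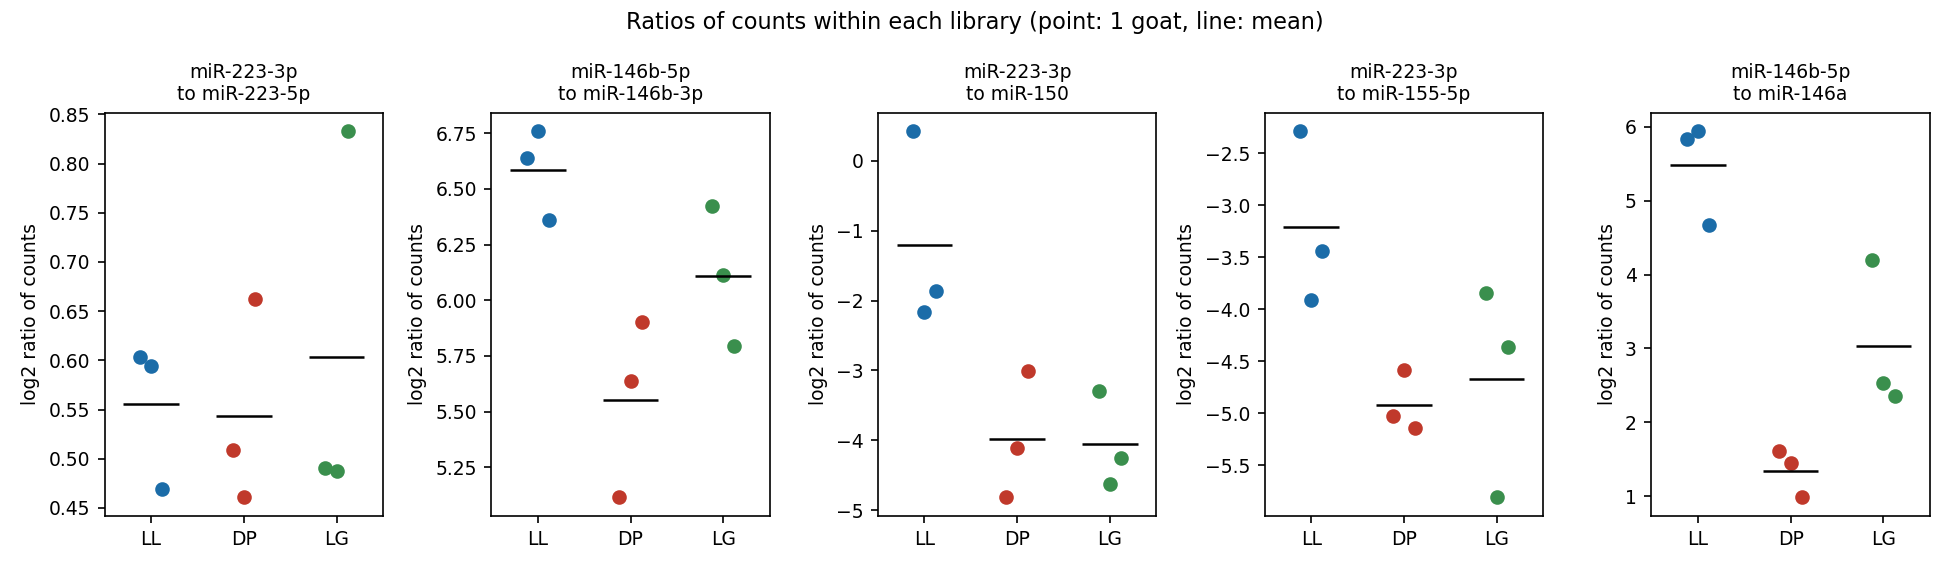
log2 of the ratio of counts between 2 immune miRNAs of the same library (y axis, a separate range in each panel), by stage. Each point is 1 goat and the line is the mean of 3 goats. The ratio of chi-miR-146b-5p to chi-miR-146a separates the 3 stages, that of chi-miR-223-3p to chi-miR-150 is highest in LL, and the miR-223 arms keep 1 ratio.

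Over the 9 libraries, the log2 levels of the immune miRNAs fell into unlike patterns. Pearson's r was 0.997 between the arms of miR-223 and 0.98 between those of miR-146b. chi-miR-155-5p was closest to chi-miR-146a (r = 0.87), and chi-miR-150 was closest to chi-miR-155-5p (r = 0.67). Toward chi-miR-146b-5p, r was −0.40 for chi-miR-150 and 0.07 for chi-miR-155-5p. chi-miR-223-3p had r = 0.22 with chi-miR-150, 0.71 with chi-miR-155-5p and 0.60 with chi-miR-146b-5p. The 9 points share their stages and their scaling, so these are descriptions of the pattern and no test.

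**Figure D4:**
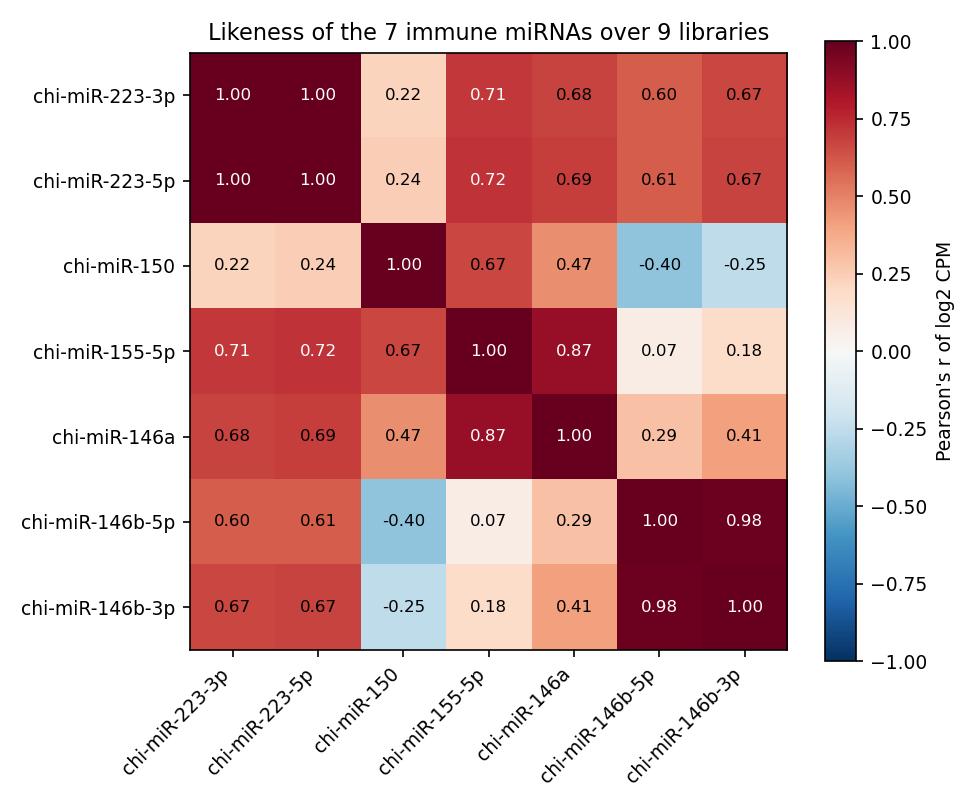
Pearson's r of log2 CPM (prior count of 2) over the 9 libraries between each pair of the 7 tested immune miRNAs, with blue for negative and red for positive values. The arms of miR-223 and those of miR-146b pair up, and chi-miR-150 has its lowest values, −0.40 and −0.25, with the miR-146b arms.

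Among the 361 other known miRNAs tested, those most like each immune miRNA over the 9 libraries were found by the same measure. For both arms of miR-223 they were chi-miR-29c-5p (r = 0.93 with each), chi-miR-499-5p (r = 0.92) and chi-miR-500-5p (r = 0.89). chi-miR-29c-5p had 80.1 CPM in LL, 62.3 CPM in DP and 30.4 CPM in LG, a narrower range than that of miR-223. For chi-miR-150 they were chi-let-7b-5p (r = 0.94), chi-miR-361-5p (r = 0.93) and chi-miR-34b-3p (r = 0.92). chi-let-7b-5p had 6148 CPM in LL, 15435 CPM in DP and 5864 CPM in LG. chi-miR-155-5p and chi-miR-146a shared 2 of their 3, chi-miR-2483-5p (r = 0.95 and 0.90) and chi-let-7i-5p (r = 0.91 and 0.95), and the remaining 1 was chi-miR-195-3p (r = 0.91) for chi-miR-155-5p and chi-miR-362-5p (r = 0.89) for chi-miR-146a. Both arms of miR-146b had chi-miR-135a (r = 0.95 for 5p and 0.94 for 3p) and chi-miR-7-5p (r = 0.93 and 0.94) among their 3, with chi-miR-423-5p (r = 0.93) for the 5p arm and chi-miR-335-3p (r = 0.92) for the 3p arm. chi-miR-135a had 145 CPM in LL, 15.4 CPM in DP and 12.6 CPM in LG, and its log2 fold change in DP vs. LL was −3.23 (SE 0.39, adjusted p = 0.000336).

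Other miRNAs of leukocytes were counted for comparison. Of the 5 tested on this list, 3 were called higher in DP than in LL, against 15.1% of all tested miRNAs. Against LG, 2 were called higher in DP, where 21.6% of all tested miRNAs were. The median log2 fold change of the list was 1.17 and 0.96 in these comparisons. The 2 arms of miR-147, a miRNA induced in macrophages by endotoxin, were in both counts. chi-miR-147-3p rose from 3.32 CPM in LL to 13.73 CPM in DP and had 2.86 CPM in LG, with 2.04 on the log2 scale for DP vs. LL (SE 0.36, adjusted p = 0.00230). chi-miR-342-5p, from a hairpin active in lymphoid and myeloid cells, was the other one called in DP vs. LL, at 2.62 CPM in LL and 5.94 CPM in DP. The called members were the low ones of the list. The abundant chi-miR-342-3p, at 397 CPM in LL and 658 CPM in DP, was not called in DP vs. LL (0.73 on the log2 scale, adjusted p = 0.0697), and neither was chi-miR-181b-5p, at 277 CPM in LL, 381 CPM in DP and 385 CPM in LG (0.46, adjusted p = 0.196). In LL vs. LG, edgeR called 0 of the 5, against 12.8% of all tested miRNAs. There were 0 at an unadjusted p under 0.05 and 0 called by DESeq2 and limma-voom. The summed level of the list was 590 to 733 CPM in LL, 835 to 1238 CPM in DP and 607 to 857 CPM in LG.

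Of 4 tested miRNAs of the NF-kB list, 3 were called higher in DP than in LG, 1 higher in DP than in LL and 1 higher in LL than in LG. Among all tested miRNAs these shares were 21.6%, 15.1% and 8.91%. chi-miR-21-5p, induced in inflammation and also abundant in stroma, had 41683 CPM in LL, 84608 CPM in DP and 22643 CPM in LG, and was called in both comparisons of DP, with 1.90 on the log2 scale against LG (SE 0.30, adjusted p = 0.000976). chi-miR-9-5p and chi-miR-9-3p were higher in DP than in LG by 1.96 and 2.49, and chi-miR-9-3p was higher in LL than in LG by 1.54. In these 2 lists no miRNA was called lower in DP, where 11.6% of all tested miRNAs were in DP vs. LL and 9.91% in DP vs. LG. Both arms of miR-146b were called lower in DP vs. LL and were not called in DP vs. LG.

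Lists of other cell types moved between the same stages. All 5 epithelial miRNAs were called lower in DP than in LL, against 11.6% of all tested miRNAs. They were led in abundance by chi-miR-200b (23642 CPM in LL and 10916 CPM in DP). Against LG, edgeR and limma-voom called 3 of the 5 lower in DP and DESeq2 called 5, while edgeR called 9.91% of all tested miRNAs lower. chi-miR-200b was among those that edgeR did not call, as its log2 fold change of −0.85 (adjusted p = 0.0130) missed the limit on the fold change and not that on the p-value. Of 8 fibroblast and smooth muscle miRNAs, 4 were called higher in DP than in LL and 5 higher in DP than in LG, against 15.1% and 21.6% of all tested miRNAs. chi-miR-143-3p, the most abundant, was in neither count, at 82771 CPM in LL and 61292 CPM in DP. Of the 2 endothelial arms of miR-126, chi-miR-126-5p was higher in DP than in LG (log2 fold change 1.08), and the more abundant chi-miR-126-3p was not called (0.74). Of 6 skeletal muscle miRNAs, chi-miR-206 was higher in DP in both comparisons and chi-miR-1 in DP vs. LG, and of 3 from red blood cells chi-miR-451-5p was called, in DP vs. LG. In LL vs. LG, 1 of the 8 fibroblast and smooth muscle miRNAs was called, chi-miR-145-3p (log2 fold change 1.22, adjusted p = 0.0183), where 8.91% of all tested miRNAs were called higher. DESeq2 and limma-voom each called 1 of this list. chi-miR-126-5p, chi-miR-145-3p, chi-miR-181b-5p, chi-miR-206, chi-miR-342-3p and the miR-144 arms are named after their values were seen. edgeR called 0 epithelial, endothelial, skeletal muscle and red blood cell miRNAs in LL vs. LG, against 12.8% of all tested miRNAs. In these lists 2, 1, 2 and 2 had an unadjusted p under 0.05. DESeq2 called 0, 0, 0 and 1 of them and limma-voom 0 in each list. In DP vs. LL, 0 endothelial and 0 red blood cell miRNAs were called, against 26.7% of all tested miRNAs. There were 0 at an unadjusted p under 0.05 and 0 by either other tool. The part of these shifts in the changes of the immune miRNAs was not tested.

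**Figure D5:**
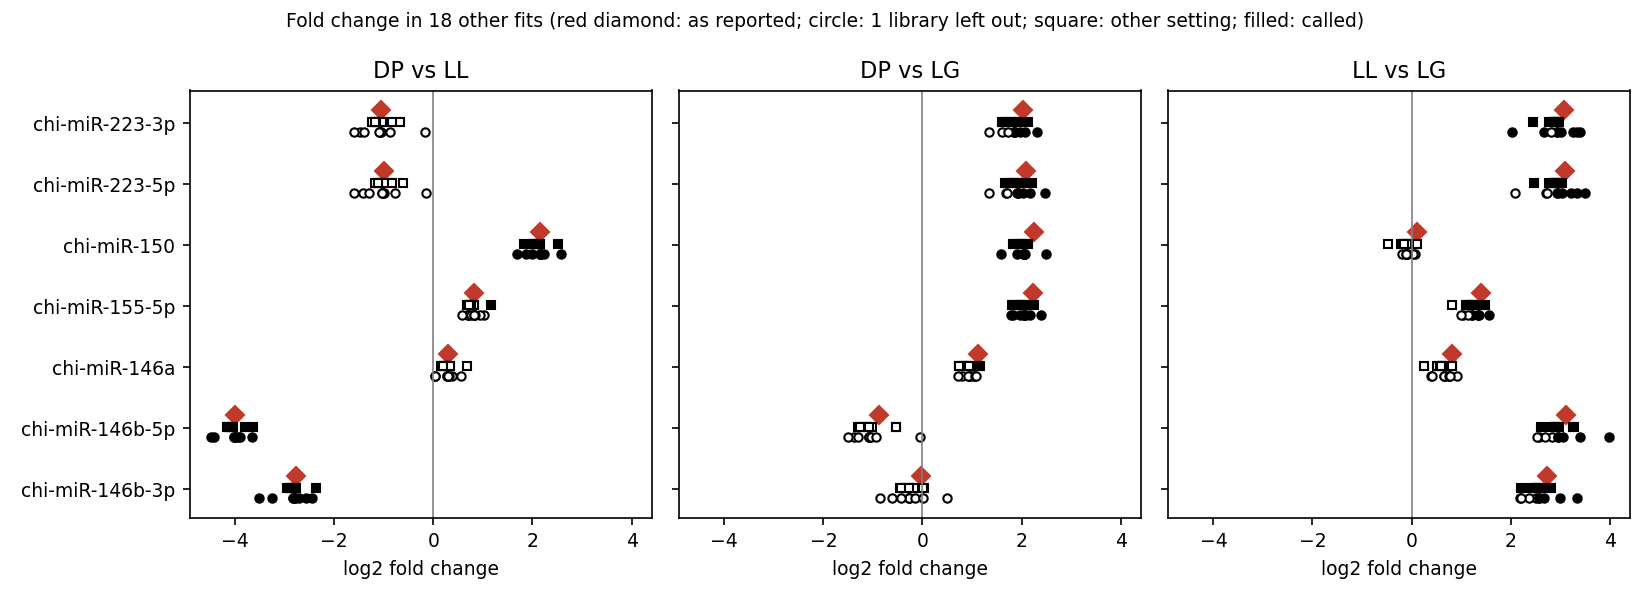
log2 fold change (x axis) of the 7 tested immune miRNAs in each comparison, as reported (red diamond), with 1 of the 9 libraries left out (circles) and with 9 other settings of scaling, filter, tool or design (squares). Filled marks were called. The changes of chi-miR-150 and of both miR-146b arms in DP vs. LL, and those of chi-miR-150 and chi-miR-155-5p in DP vs. LG, are filled throughout, and chi-miR-146a in DP vs. LG is mostly open.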

How the data were processed

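The authors trimmed the reads, aligned them with miRDeep2 to ARS1.2, added predicted to known miRBase miRNAs and counted reads per mature miRNA with its quantifier. The submitters' processing notes also name FastQC 0.11.9, cutadapt 4.2 and Bowtie 1.1.1. The deposited values are counts, not normalized. LL replicate 3 is a deposited expected count column, since 2 predicted miRNAs hold a value that is not whole, and was rounded. Stages were taken from the labels. The test was edgeR's quasi-likelihood test (version 4.0.16, R 4.3.3, functions glmQLFit and glmQLFTest) after TMM scaling, with stage as the only term and the 9 libraries fitted together. It covered 696 miRNAs that reached 0.5 CPM in 3 or more libraries. p-values were adjusted by Benjamini-Hochberg over all 696. The SE was the size of the log2 fold change over the root of its F statistic. The miRNAs and lists were chosen with earlier results of these data known. Of 46 listed marker names, 34 had a row, and the others (miR-142 among them) were not used here. miRNAs named beside the members were the 3 most alike per member, the called ones of the leukocyte and NF-kB lists and the most abundant of each other list. The seed rule could not be applied, since mature sequences were not used here. Ratios had 0.5 added to each count. Other settings were DESeq2 1.42.0, limma-voom (limma 3.58.1), other scalings and filters, 2-stage fits, a replicate block and leaving out each library. The scripts were tested on simulated data.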

Additional observations from a re-analysis of the deposited data

How the results depend on the processing

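Of 378 recomputed log2 fold changes (21 in 18 other fits each), 319 kept their direction and their side of the threshold, 40 lost and 1 gained a call, and 18 changed sign, none of a called change. The sign changes were those of chi-miR-146b-3p in DP vs. LG (0.024 with limma-voom, 0.0063 with the replicate block, −0.85 to 0.49 with 1 library left out) and of chi-miR-150 in LL vs. LG (−0.090 with DESeq2, −0.038 with upper quartile scaling, −0.47 with library size only, −0.10 when TMM was set without chi-miR-148a-3p, −0.22 with no filter, −0.16 with at least 10 counts in every library, −0.14 with only these 2 stages, −0.19 to 0.070 with 1 library left out). With 1 library left out, the number of immune miRNAs called was 3 in each fit for DP vs. LL, 2 to 4 for DP vs. LG (2 without DP replicate 2, LG replicate 2 or LG replicate 3) and 0 to 5 for LL vs. LG (1 without LL replicate 1, 2 without LL replicate 2 or LG replicate 2, 0 without LG replicate 3, where 5 had an unadjusted p under 0.05 in edgeR and no other tool was run). All DE-miRNAs numbered 124 to 192, 152 to 248 and 33 to 125 in these comparisons (33, 36, 54 and 41 in LL vs. LG without LL replicate 1, LL replicate 2, LG replicate 1 and LG replicate 3), and 144 in LL vs. LG with only these 2 stages, against 89. The scaling moved their split into higher and lower, from 105 and 81 to 165 and 59 in DP vs. LL, from 150 and 69 to 116 and 85 in DP vs. LG and from 62 and 27 to 30 and 90 in LL vs. LG with library size only. The cause of these moves was not tested.

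With 1 library left out, the exact permutation p was not adjusted over the ratios. It was 0.0179 to 0.0607 for the arms of miR-146b and 0.00714 to 0.575 for those of miR-155 (0.00714 without DP replicate 1). For chi-miR-223-3p to chi-miR-150 it was 0.0286 to 0.0786 (0.0786 without LL replicate 1, 0.05 without LG replicate 3). For chi-miR-223-3p to chi-miR-155-5p it was 0.0214 to 0.239 (0.0214 without LG replicate 2). The arms of miR-223 gave 0.679 to 0.943, and their highest stage changed without LG replicate 3. Same-numbered libraries of different stages come from different goats, so the numbers do not mark the same animal. In their deviations from the stage means they correlated between −0.10 and 0.21. Each of 6 libraries correlated best with its own number in DP vs. LG, 4 of 6 did in DP vs. LL and 2 of 6 in LL vs. LG. Whether same-numbered libraries share something else was not tested. With the replicate block, 3, 5 and 5 immune miRNAs were called in DP vs. LL, DP vs. LG and LL vs. LG, and 170, 222 and 88 miRNAs in all. With 3 goats per stage, the spread that the p-values rely on comes from few animals, and the values of chi-miR-155-3p rest on 12 counts.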
